A study of Rattus norvegicus with 6 samples.

Results

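The immediate early genes of neuronal activity were examined in the rat rostral ventromedial medulla (RVM), a part of the brainstem that sends fibres down to the trigeminal and spinal dorsal horn and can facilitate or inhibit pain there. The set had been given as 9 genes by Ensembl identifier, namely *Fos*, *Jun*, *Junb*, *Egr1*, *Egr2*, *Arc*, *Nr4a1*, *Dusp1* and *Btg2*. Of these, 7 matched a row among the 22976 genes of the deposited table, and *Junb* and *Dusp1* are not analysed here. Symbols are those given with the set, since neither the table nor the annotation used here pairs Ensembl identifiers with symbols.

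RNA was taken on day 3 after 50 µL of CFA (complete Freund's adjuvant, killed mycobacteria in oil, used to provoke lasting inflammation) in 3 libraries, or after 50 µL of saline in 3 libraries. Either fluid had been injected into the left and right temporomandibular joints, which hinge the jaw, so every animal had been injected and no group of untouched rats is described. The labels give no strain, sex or age, and no label ties the libraries of a group to separate animals. The p-values therefore rest on differences among these libraries only, and those may be technical. In bulk tissue, fewer cells of a type and less RNA per cell cannot be told apart. Markers of the RVM and of its cell types are not analysed here, because no annotation paired their names with identifiers.

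Immediate early genes are transcribed within minutes of a stimulus, without the need for newly made protein. In neurons, calcium entry and MAP kinase signalling activate factors already bound at their promoters. Serum response factor acts there with its partners at CArG boxes, and CREB at cyclic AMP response elements (CRE). Their transcripts usually decay again within hours. *Fos* is widely used as a marker of neurons excited by noxious input. Most of these genes are not specific to neurons, since growth factors and cell stress induce them in glia and other cells too.

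Promoters were examined for *Egr1*, *Egr2*, *Nr4a1* and *Btg2*, the 4 members with an entry in the sequence table used here, and those of *Fos*, *Jun* and *Arc* are not analysed here. They are shown for the CArG boxes and CRE letters, elements through which activity is known to reach genes of this class. Each sequence is the 250 bases before the annotated start, 5′ to 3′ on the gene's strand, from RefSeq on the rat build GRCr8. Coordinates are chr18:26736828-26737077 (plus strand) for *Egr1* and chr20:21054442-21054691 (minus strand) for *Egr2*. They are chr7:134259888-134260137 (plus strand) for *Nr4a1* and chr13:48087691-48087940 (minus strand) for *Btg2*. Capitals mark CArG boxes, read as CCWWWWWWGG with W for A or T. They also mark the full CRE TGACGTCA and its half-site TGACG on either strand, which reads CGTCA on the other strand. Only exact matches were counted, so near matches to any of these letters are not marked. A full CRE holds overlapping half-sites on both strands.
Egr1: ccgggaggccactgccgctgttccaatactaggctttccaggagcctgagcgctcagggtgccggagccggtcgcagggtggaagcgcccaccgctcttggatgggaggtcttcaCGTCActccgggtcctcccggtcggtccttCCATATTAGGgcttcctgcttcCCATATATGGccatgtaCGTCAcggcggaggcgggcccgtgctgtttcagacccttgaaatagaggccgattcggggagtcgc
Egr2: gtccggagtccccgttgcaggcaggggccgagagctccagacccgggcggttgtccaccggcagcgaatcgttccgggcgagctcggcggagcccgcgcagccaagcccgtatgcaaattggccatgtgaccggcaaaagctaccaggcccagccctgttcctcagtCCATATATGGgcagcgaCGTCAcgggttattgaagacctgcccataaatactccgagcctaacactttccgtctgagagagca
Nr4a1: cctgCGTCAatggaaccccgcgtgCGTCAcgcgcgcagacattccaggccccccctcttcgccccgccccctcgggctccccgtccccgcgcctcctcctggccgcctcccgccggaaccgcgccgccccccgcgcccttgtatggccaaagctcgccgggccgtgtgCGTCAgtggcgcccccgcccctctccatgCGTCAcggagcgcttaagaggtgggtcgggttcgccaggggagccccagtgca
Btg2: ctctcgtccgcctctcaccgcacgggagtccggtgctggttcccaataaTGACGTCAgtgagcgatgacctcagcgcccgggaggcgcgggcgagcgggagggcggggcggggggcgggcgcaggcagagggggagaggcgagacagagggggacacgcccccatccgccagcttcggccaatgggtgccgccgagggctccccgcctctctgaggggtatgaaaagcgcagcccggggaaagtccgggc

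The *Egr1* window held 2 CArG boxes, beginning 105 and 83 bases before the start, and half-sites beginning 135 and 66 bases before it. *Egr2* held 1 CArG box at 83 bases and a half-site at 66 bases, the same positions as the inner pair in *Egr1*. *Nr4a1* held 4 half-sites, at 246, 226, 82 and 53 bases, and no CArG box. *Btg2* held the full CRE at 201 bases and no CArG box. Among 33469 rat promoters of the same length, 1.5% held a CArG box, 1.59% a full CRE and 18.2% a half-site. The AP-1 site TGACTCA (4.05% of all promoters) and the EGR site GCGTGGGCG (0.478%), both read on either strand, matched none of the 4 windows. GC content was 62.0% to 74.8%, against a median of 51.2% over all promoters. The letters CG in a row (CpG) occurred 20 to 32 times, against a median of 5. The full CRE and its half-site each hold a CpG, and their shares were not worked out over promoters of like CpG content. A match is a description of letters and not a binding site.

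**Figure D1:**
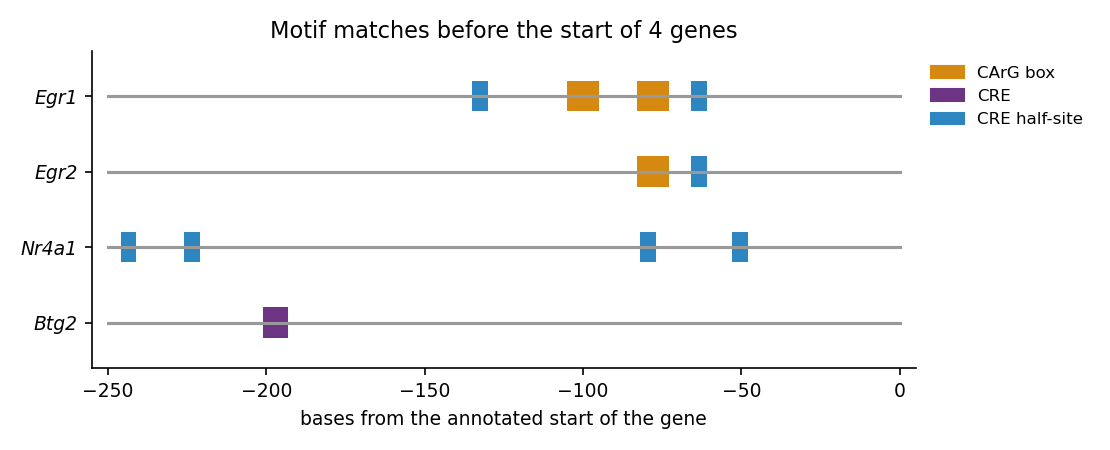
Positions of matches in the 250 bases before the start of *Egr1*, *Egr2*, *Nr4a1* and *Btg2*, with bases from the annotated start on the horizontal axis and 1 line per gene. Boxes mark CArG boxes, the full CRE and CRE half-sites. *Egr1* and *Egr2* share a CArG box at 83 bases and a half-site at 66 bases before the start.

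Libraries held 27534174 to 38260153 fragments after CFA and 34440104 to 44977905 after saline, as read from the step sizes of the FPKM values (fragments scaled by gene length and library total). At these depths the 6 genes that were tested held 150 to 2554 fragments in a library. The sources used here do not define a fragment as a single read or a pair.

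Of the 7 genes, 4 rose after CFA. These were *Btg2*, *Jun*, *Egr1* and *Nr4a1*, while *Fos* and *Arc* did not pass the test and *Egr2* was under the filter on low values. In means of FPKM the rise was 2.01-fold for *Btg2*, 1.33-fold for *Jun*, 1.33-fold for *Egr1* and 1.36-fold for *Nr4a1*. No member passed as lower. Tests were made over all 13566 genes averaging 1 FPKM or more, by limma on log2(FPKM + 1) with Benjamini-Hochberg adjustment, and a gene was called at an adjusted p under 0.05. Of the 6 members tested, 4 were called, where 18.8% of all genes tested were called, 11.3% as higher and 7.48% as lower. In these 4 every CFA library lay above every saline library, as it did in 21.2% of all genes tested, and groups were apart in either direction in 37.7%. The split of all calls by direction depended on the scaling, with 1197 genes higher and 1391 lower under quantile scaling. The median log2 change was 0.32 over the 6 members and 0.01 over all genes tested. The genes had been chosen with earlier results of these data known, so these counts describe them.

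**Figure D2:**
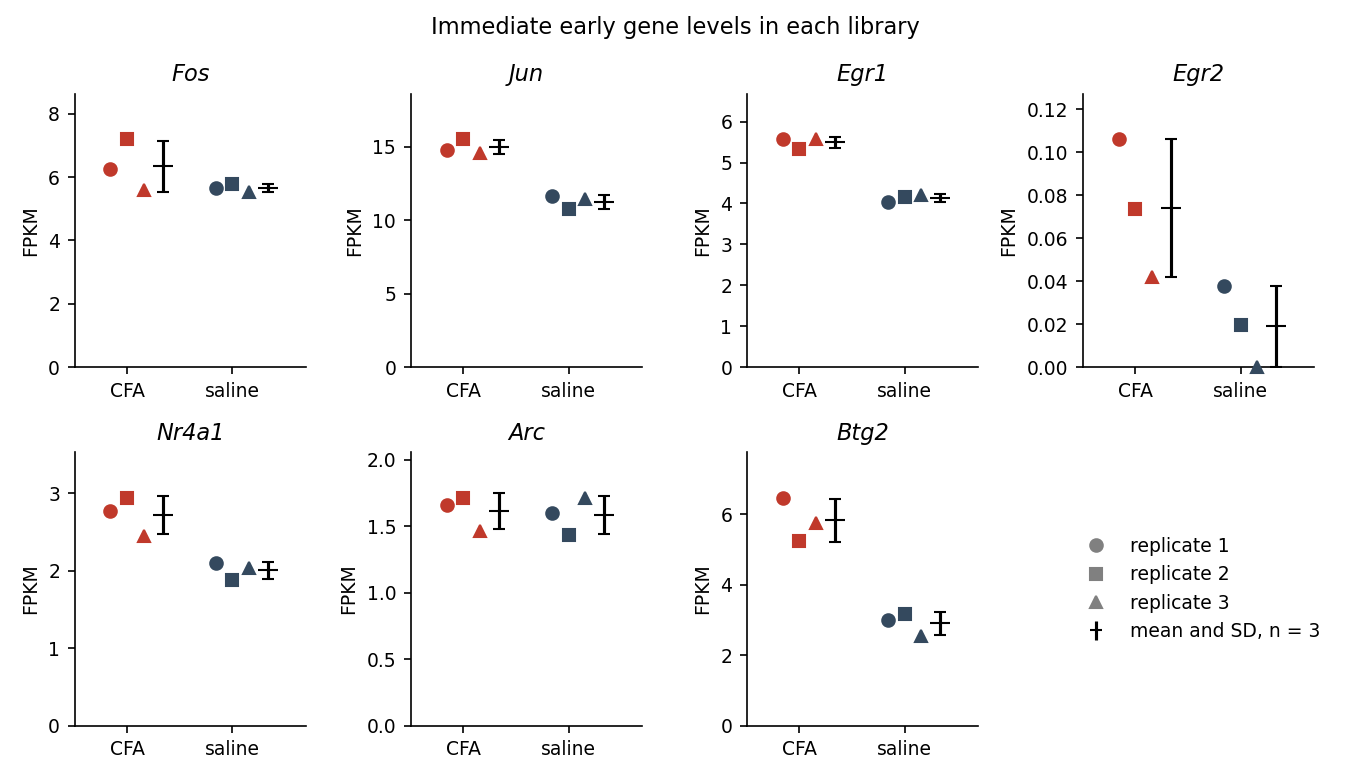
FPKM of 7 immediate early genes in each library, with CFA on the left and saline on the right of each panel, points for replicates and bars for the mean and SD (n = 3). The groups are apart for *Jun*, *Egr1*, *Nr4a1* and *Btg2* and overlap for *Fos* and *Arc*. The *Egr2* panel, on a scale of hundredths of an FPKM, runs from 0.106 FPKM in a CFA library to 0 in a saline library.

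*Fos* and *Jun* encode the partners of the AP-1 transcription factor, which binds DNA as a Fos-Jun or a Jun-Jun dimer. *Fos* (ENSRNOG00000008015) had 6.25, 7.2 and 5.59 FPKM in CFA replicates 1, 2 and 3, against 5.65, 5.77 and 5.53 FPKM in saline replicates 1, 2 and 3. CFA replicates 1 and 2 lay above all saline libraries and CFA replicate 3 lay among them, so the groups overlapped. The means were 6.35 ± 0.809 FPKM after CFA and 5.65 ± 0.12 FPKM after saline (SD, n = 3 each). The log2 change of FPKM + 1 was 0.14 (SE 0.08, 95% interval -0.04 to 0.32, adjusted p = 0.270, limma). Without CFA replicate 2, the highest library, it was 0.06, and without CFA replicate 3 it was 0.21, with adjusted p = 0.599 and 0.0845 (limma), the highest and lowest over all alternatives.

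*Jun* (ENSRNOG00000026293) had 14.8, 15.5 and 14.6 FPKM in the CFA libraries, against 11.6, 10.7 and 11.4 FPKM in the saline libraries. All CFA libraries were above all saline libraries, with a gap several times the SD within either group. The means were 15.0 ± 0.478 FPKM after CFA and 11.2 ± 0.468 FPKM after saline (SD, n = 3 each). The log2 change was 0.38 (SE 0.04, adjusted p = 0.000623, limma), the 692nd largest rise of the genes tested. Its fragments, 6607 over the CFA libraries and 5990 over the saline libraries, were the most of any member.

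The EGR genes encode zinc finger factors that bind GC-rich sites. *Egr1* (ENSRNOG00000019422), also known as Zif268 or NGFI-A, is induced by synaptic activity and by growth factors. It had 5.57, 5.34 and 5.57 FPKM in the CFA libraries, against 4.03, 4.17 and 4.20 FPKM in the saline libraries. The groups were apart and each was narrow, with a coefficient of variation of 2.40% after CFA and 2.25% after saline. The variance of *Egr1* within groups was 0.283 times counting noise, the variance that counting fragments alone would give. The median over genes tested was 2.41. So narrow a spread lies below counting noise and may understate the error of *Egr1*. The log2 change of *Egr1* was 0.34 (SE 0.05, adjusted p = 0.00220, limma), on 1682 fragments over the CFA libraries and 1511 over the saline libraries.

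*Egr2* (ENSRNOG00000000640), known as Krox-20 and required in mouse for hindbrain segmentation and for myelination by Schwann cells, was close to the detection limit. It had 12, 6 and 4 fragments in the CFA libraries, against 5, 2 and 0 fragments in the saline libraries. As levels these were 0.106, 0.0737 and 0.0419 FPKM after CFA, against 0.0376, 0.0196 and 0 FPKM after saline. The count of 0 in saline replicate 3 leaves room for an expected count of up to about 3 fragments, or 0.0266 FPKM, as an upper 95% bound. Over the groups, 22 fragments after CFA and 7 after saline gave a ratio of 3.77 per total fragments, with an exact 95% interval of 1.55 to 10.4 that covers counting error only. The CFA libraries all lay above the saline libraries, though the nearest pair held 4 fragments in CFA replicate 3 and 5 in the deeper saline replicate 1. The exact two-sided permutation test gave p = 0.10, the smallest that 3 against 3 libraries allow. Fitted without the filter, *Egr2* had a log2 change of FPKM + 1 of 0.08 (SE 0.03, unadjusted p = 0.0689, adjusted p = 0.257, limma) and was not called. The added 1 is far above the levels of *Egr2* and shrinks this change strongly, so its small size says little about the ratio.

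*Nr4a1* (ENSRNOG00000007607), also known as Nur77 or NGFI-B, encodes an orphan nuclear receptor. It had 2.77, 2.94 and 2.45 FPKM in the CFA libraries, against 2.09, 1.89 and 2.03 FPKM in the saline libraries. All CFA libraries were above all saline libraries, with CFA replicate 3 the nearest to them. The means were 2.72 ± 0.250 FPKM after CFA and 2.00 ± 0.108 FPKM after saline (SD, n = 3 each), and the log2 change was 0.31 (SE 0.07, adjusted p = 0.0249, limma). This call was the least firm of the 4. It was lost when CFA replicate 1 or 2, or saline replicate 1, 2 or 3, was left out. Adjusted p was then 0.0734, 0.0720, 0.0546, 0.0792 and 0.0653 (limma). Over all 6 libraries left out in turn, the log2 change stayed between 0.26 and 0.36. Leaving out a library also cut the calls over all genes, from 2545 to between 1743 and 2014. The *Nr4a1* call was also lost with quantile scaling (adjusted p = 0.0731), the replicate number as a block (0.0592) and no filter on low values (0.0543, limma). Over all its alternatives the adjusted p ran from 0.0118 to 0.0792.

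*Arc* encodes a protein that acts at the synapse itself, where it promotes the removal of AMPA receptors from the membrane. *Arc* (ENSRNOG00000043465) had 1.66, 1.72 and 1.46 FPKM in the CFA libraries, against 1.6, 1.44 and 1.71 FPKM in the saline libraries. The groups covered nearly the same range. The means were 1.61 ± 0.134 FPKM after CFA and 1.58 ± 0.140 FPKM after saline (SD, n = 3 each). By limma the log2 change of FPKM + 1 was 0.02 (SE 0.08, 95% interval -0.17 to 0.20, adjusted p = 0.916). The added 1 shrinks changes at levels this low, so the interval would be wider on FPKM itself. The sign of the change turned with quantile scaling (-0.07) and without CFA replicate 2 (-0.01) or saline replicate 2 (-0.03).

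*Btg2*, known from rat as PC3, was found as a gene induced by nerve growth factor and encodes an antiproliferative protein that also promotes mRNA deadenylation. The tumour suppressor p53 is among its known activators. *Btg2* (ENSRNOG00000003300) had 6.47, 5.24 and 5.76 FPKM in the CFA libraries, against 2.98, 3.18 and 2.53 FPKM in the saline libraries. Even the lowest CFA library was well above the highest saline library. The means were 5.82 ± 0.615 FPKM after CFA and 2.9 ± 0.331 FPKM after saline (SD, n = 3 each). The log2 change was 0.81 (SE 0.09, 95% interval 0.60 to 1.01, adjusted p = 0.000586, limma), larger than that of 98.1% of the genes tested. Its 1373 fragments after CFA and 809 after saline varied within groups by 4.17 times counting noise, against a median of 2.41 over genes tested.

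**Figure D3:**
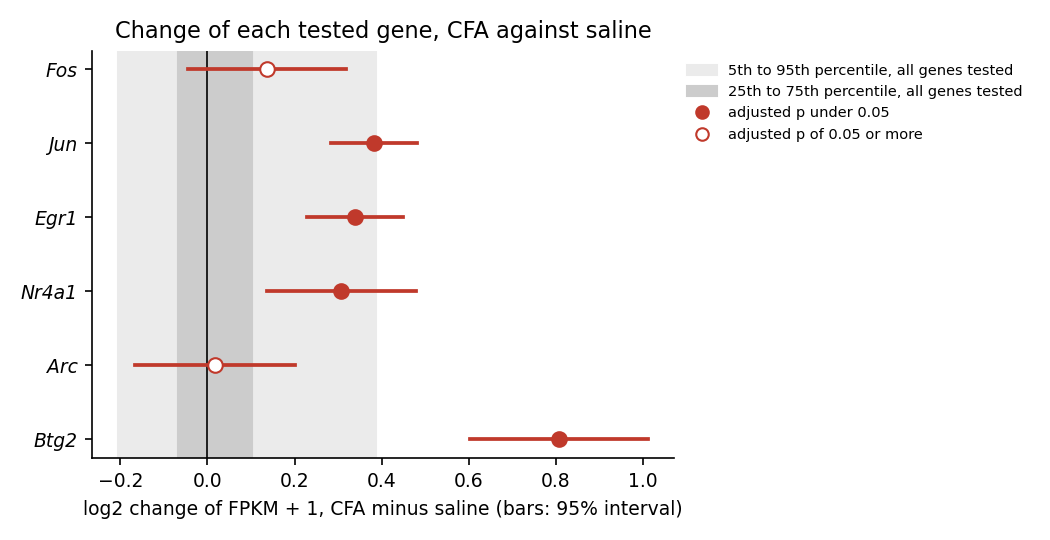
Log2 change of FPKM + 1, CFA minus saline, for the 6 tested genes, with bars for the 95% interval and filled points for an adjusted p under 0.05. The added 1 shrinks the changes and intervals of genes with low values more than those of genes with high values. Grey bands give the range of all genes tested, from -0.20 at the 5th to 0.39 at the 95th percentile. *Btg2* lies beyond the band, *Jun*, *Egr1* and *Nr4a1* in its upper part, and the intervals of *Fos* and *Arc* cross 0.

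The order of levels per length differed little between groups. After CFA, *Jun* was the highest in FPKM, followed by *Fos*, *Btg2*, *Egr1*, *Nr4a1*, *Arc* and *Egr2*. The neighbours *Fos* and *Btg2*, and *Btg2* and *Egr1*, had overlapping ranges there, and the other neighbours did not overlap. After saline the order was *Jun*, *Fos*, *Egr1*, *Btg2*, *Nr4a1*, *Arc* and *Egr2*, with no overlap between neighbours. *Btg2* was thus below *Egr1* in every saline library, whereas after CFA its range included that of *Egr1*. In level, *Jun* was above 79.9% of the genes listed, *Nr4a1* above 51.3% and *Arc* above 46.1%.

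Whether the genes that rose changed more than *Fos* and *Arc* was examined by the ratio of FPKM within each library, a comparison chosen after the values were seen. The ratio of *Btg2* to *Fos* was 1.03, 0.728 and 1.03 in the CFA libraries, against 0.528, 0.550 and 0.458 in the saline libraries. The ratio of *Jun* to *Fos* was 2.37, 2.15 and 2.61 after CFA, against 2.05, 1.86 and 2.06 after saline, so it was higher in every CFA library than in any saline library, by a mean of 0.25 on the log2 scale. The ratio of *Nr4a1* to *Arc* was 1.66, 1.72 and 1.68 after CFA, against 1.31, 1.31 and 1.19 after saline. Of the 8 ratios of a called gene to *Fos* or *Arc*, 7 were higher in every CFA library than in any saline library, and *Egr1* to *Fos* overlapped. In the exact permutation test (two-sided) each of the 7 gave p = 0.10, the smallest 3 against 3 libraries allow, and 0.114 after adjustment over the 8 ratios, and *Egr1* to *Fos* gave 0.20. With a smallest p of 0.10 this test could not pass 0.05 whatever the values. The numerators had also been called and the denominators had not, on these same libraries, and the ratios share *Fos* or *Arc*, so they describe these libraries and do not test a difference between the genes.

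Within groups the members did not all rank the libraries alike. CFA replicate 2 was the highest CFA library for *Fos*, *Jun*, *Nr4a1* and *Arc* and the lowest for *Egr1* and *Btg2*. CFA replicate 3 was the lowest for *Fos*, *Jun*, *Nr4a1* and *Arc*, and lay above its group mean for only 1 of the 6 members. Relative to the group mean of log2(FPKM + 1), *Fos* lay at 0.16 in CFA replicate 2 and -0.15 in CFA replicate 3. In the saline libraries *Fos* lay at most 0.03 either way, and whether its spread differs between groups was not tested. In CFA replicates 2 and 3, *Nr4a1* lay at 0.09 and -0.11, whereas *Btg2* lay at -0.12 and -0.01. *Egr1* stayed within 0.034 of its group mean in every library. Counting noise was compared over both groups together, which does not give the spread of *Fos* in either group alone. Variance within groups was 2.51 times counting noise for *Fos*, 2.65 for *Jun* and 4.17 for *Btg2*, against a median of 2.41 over genes tested. It was 1.22 for *Nr4a1*, 1.26 for *Arc* and 0.283 for *Egr1*, so the order of libraries in these genes cannot be told from counting error.

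**Figure D4:**
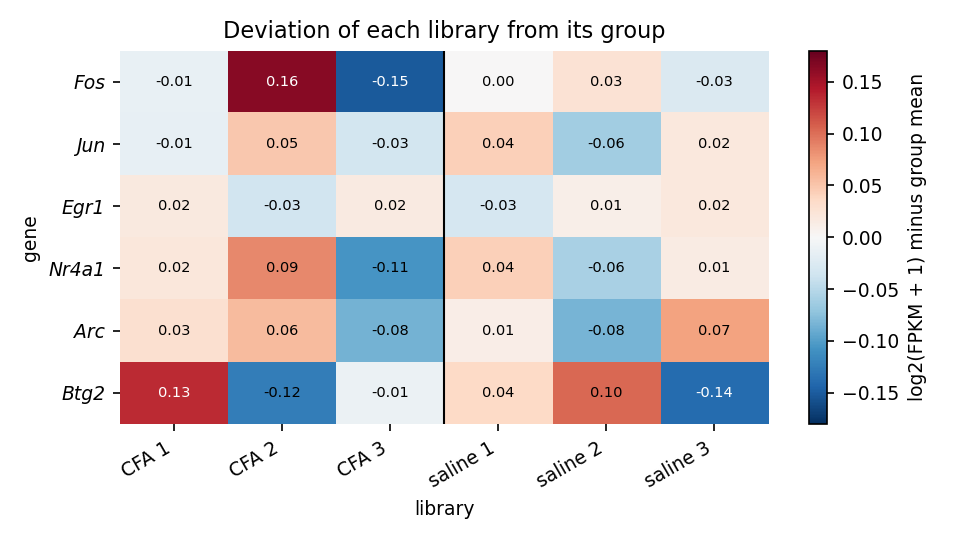
Deviation of log2(FPKM + 1) from the group mean, for 6 genes (down) in each library (across, CFA left of the line and saline right of it), red above and blue below. *Fos* has the widest spread after CFA, 0.16 in replicate 2 and -0.15 in replicate 3, and *Btg2* runs the other way in CFA replicate 2.

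Over the 6 libraries, *Nr4a1* had the pattern closest to the mean of the 6 standardised members (Pearson r = 0.997) and *Arc* the least close (0.464), though each is part of that mean. Outside the set, ENSRNOG00000006228 and ENSRNOG00000018686 were most alike, with r = 0.998 and 0.997. ENSRNOG00000006228 averaged 27.2 ± 0.758 FPKM after CFA and 24.7 ± 0.305 FPKM after saline (SD, n = 3 each). With 6 libraries in 2 groups, such a correlation mostly reflects the difference between groups, and it is given as a description.

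Other processing left *Btg2*, *Jun* and *Egr1* past the threshold in all 16, 17 and 16 alternatives in which they were tested. *Fos* was past it in 0 of 17 and *Arc* in 0 of 16 alternatives, and *Nr4a1* in 8 of 16.

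**Figure D5:**
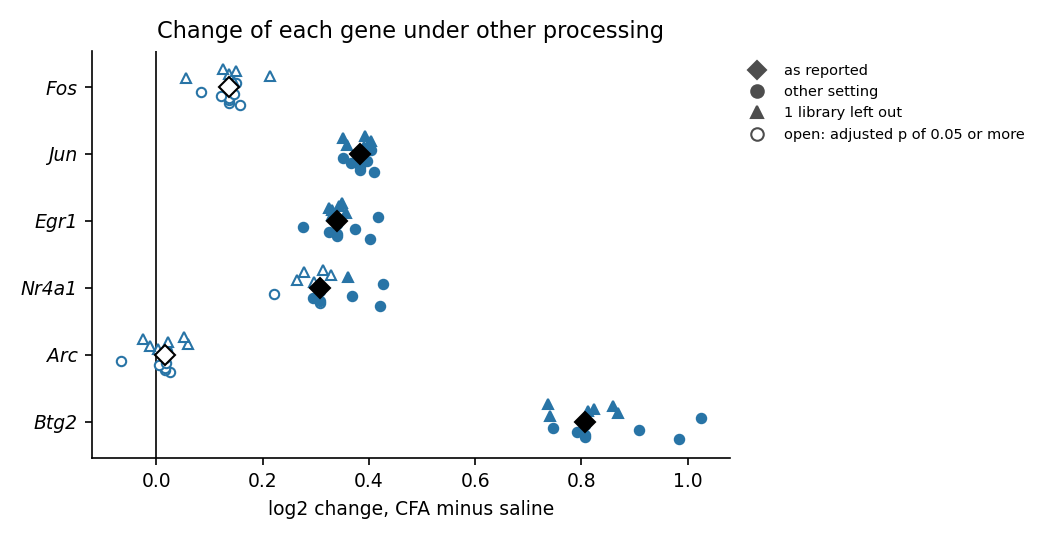
Log2 change, CFA minus saline, of each tested gene as reported (diamonds), under other settings (circles, among them a smaller pseudocount) and with 1 library left out (triangles), open where the adjusted p was 0.05 or more. *Btg2* stays between 0.74 and 1.02, *Jun* between 0.35 and 0.41, and *Arc* lies on both sides of 0.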

How the data were processed

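The authors deposited 1 table of FPKM values with 22976 Ensembl identifiers and a column for each of the 6 libraries. Poly-A RNA was selected on poly-T beads, primed with random hexamers and read from both ends on a DNBSEQ-T7, per the labels' protocols, which describe no step that marks the strand. The tools named are HISAT2 2, StringTie 2, fastp 0.21.0 and DESeq2 1.30.1, with the build mRatBN7.2 and no role for any, per the submitters' processing notes. The sources used here give neither the annotation release nor the rule for shared reads, so overlapping genes may hold each other's fragments. FPKM of all 22976 genes came out as whole fragments within 0.0001 once library totals had been worked out. Lengths and fragments are known up to a common divisor.

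Groups and replicate numbers came from the titles. The 13566 genes averaging 1 FPKM or more were tested with limma 3.58.1 in R 4.3.3 (trend, 4 residual degrees of freedom, two-sided, Benjamini-Hochberg over all genes tested), on log2(FPKM + 1), a scale that shrinks the changes of genes with low values. The fit and the recovery of fragments were tested on simulated data. Ratios between members were tested by exact permutation. Python 3.11.15, numpy 2.4.6, pandas 2.3.3, scipy 1.17.1 and matplotlib 3.10.9 made tables and figures. Same-numbered libraries showed no shared deviation from their group means (correlations across genes of -0.021 to 0.023), so the replicate number was used only in an alternative.

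All 9 genes were to be named. The genes, lists and tests were chosen with earlier results of these data known. Wider lists of activity-regulated genes, upstream signalling genes and cell type markers had been set by symbol. The annotation used here gave 0 of the Ensembl identifiers a symbol, so these lists are not analysed here.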

Additional observations from a re-analysis of the deposited data

How the results depend on the processing

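Alternatives covered the pseudocount, the filter, the scaling, the variance moderation, the replicate number as a block, voom on recovered fragments and each library left out. Changes of *Jun*, *Egr1* and *Btg2* kept direction and call in all of them in which each was tested. *Nr4a1* (0.31, limma) missed the threshold without a filter (0.31), with quantile scaling (0.22) and with the replicate block (0.31, adjusted p = 0.0592), and lay between 0.26 and 0.36 with 1 library left out. With the replicate block, 2086 genes passed, of which 3 were members. *Arc* (0.02) turned to -0.067 with quantile scaling and lay between -0.026 and 0.059 with 1 library left out, and was not called in any alternative. *Fos* (0.14) lay between 0.06 and 0.21 with 1 library left out. A mean of at least 5 FPKM left *Fos* and *Jun* in the test, of which 1 was called. Over all genes tested, 2545 passed, 1530 higher and 1015 lower. The 1015 were 666 without a variance trend, where the cause was not tested, and 598 to 778 with 1 library left out, where fewer libraries entered the fit. With median ratio scaling 1363 were higher and 1315 lower, and with quantile scaling 1197 were higher and 1391 lower. *Egr2* was tested only without the filter, on 29 fragments in all, and was not called (0.08, adjusted p = 0.257, limma). The added 1, far above its level, shrinks that change. Alternatives for the wider gene lists were not run, as no symbols were matched.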
